A study of Homo sapiens with 2 samples.

Results

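The RNA-editing genes ADAR and ADARB1 and 5 genes of cytoplasmic double-stranded RNA sensing, EIF2AK2, IFIH1, DDX58, MAVS and PRKRA, were searched for RNA contacts of ADAR1. A cluster, meaning a stretch of genome where crosslinked RNA fragments piled up, was counted for a gene when its midpoint lay in the hg19 window of the gene and on the strand of the gene. Of the 23782 clusters in the deposited list, 5 met this rule, 0.021% of the list. They lay in 4 of the 7 genes. Windows as long as each gene were tiled over both strands of all chromosomes. The share holding any cluster ran from 6.43% at the length of PRKRA to 27.8% at that of ADARB1. These tiled windows include sequence that is not transcribed.

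The RNA came from U87MG, a long-established line of human glioblastoma (astrocytoma) cells, at passage 6. In CLIP-seq, ultraviolet light links proteins to the RNA they touch, the protein of interest is pulled down with an antibody, and the attached RNA is sequenced. Cells received no treatment other than ultraviolet light at harvest, and there is no control or ADAR1-depleted group in the samples used here. The 2 libraries are labelled AB1 and AB2, for antibodies that the series' design text calls different, although both carry the same catalogue entry of a mouse monoclonal against ADAR1. The list is single for the whole series and gives position, strand and an Alu or non-Alu class for each cluster, with no read number and no column per library. The values below therefore have no replicates, no measured depth and no comparison of AB1 with AB2, and all are descriptions without a test. How many reads lie behind a cluster is unknown, and the level of each RNA in these cells was not measured, so a gene without a cluster and a gene with little RNA cannot be told apart.

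Double-stranded RNA in the cytoplasm is a sign of viral infection, and cells carry sensors that bind it. RIG-I (DDX58) and MDA5 (IFIH1) are helicases that signal through the mitochondrial adaptor MAVS to interferon genes, while PKR (EIF2AK2) is a kinase that halts translation and PACT (PRKRA) is a double-stranded RNA-binding protein that can activate PKR. ADAR1, encoded by ADAR, and ADAR2, encoded by ADARB1, convert adenosine to inosine in paired RNA. Editing by ADAR1 is known to keep the cell's own paired RNA, much of it made of inverted Alu repeats, from setting off MDA5. Alu elements are short primate repeats that lie in the introns and untranslated regions of very many genes.

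The clusters in these genes were few and mostly of the Alu class. ADARB1 had 2, EIF2AK2, DDX58 and MAVS had 1 each, and ADAR, IFIH1 and PRKRA had 0 on their own strand. Those of ADARB1, EIF2AK2 and DDX58 were Alu clusters, and that of MAVS was non-Alu. The 7 windows add up to 428.3 kb, so the 5 clusters amount to 0.117 clusters per 10 kb, against 0.0401 per 10 kb of strand over the whole list between the first and last cluster of each chromosome. That second figure includes sequence that is not transcribed and assembly gaps, and the density of the genes was not set against other transcribed regions.

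**Figure D1:**
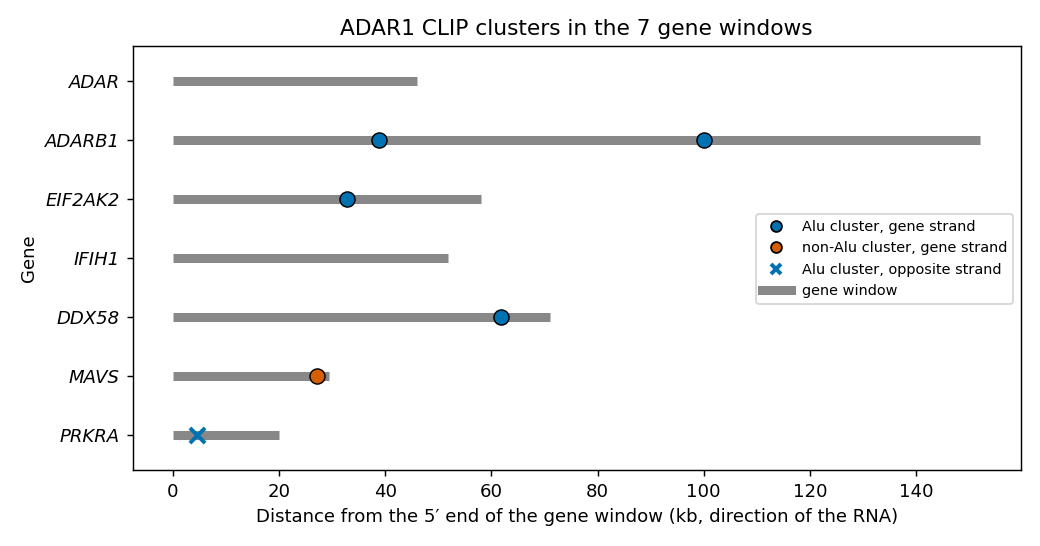
Gene windows drawn to scale from their 5′ end in the direction of the RNA (kb), with ADAR1 clusters at their midpoints; circles are clusters on the strand of the gene, the cross is a cluster on the opposite strand, and colour gives the class. ADARB1 has 2 clusters, EIF2AK2, DDX58 and MAVS have 1 each, and PRKRA has only the opposite-strand one.

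Of the editing enzymes, ADARB1 had clusters in the list and ADAR had none. ADAR, the gene of the immunoprecipitated protein, lies in the window from 154554500 to 154600500 on the minus strand of chromosome 1. Its 46.0 kb held 0 clusters on either strand. Of windows of that length, tiled over both strands of all chromosomes, 87.5% held 0 clusters, so 0 is the usual count. The surroundings of ADAR were not empty. Within 500 kb upstream and downstream of the window, 18 clusters lay on the same strand, 14 of them Alu, and 10 on the opposite strand. For comparison, 1000 kb of one strand held 4.01 clusters on average over the list. That average includes sequence that is not transcribed and assembly gaps, and the flanks were not set against those of other genes. The nearest same-strand cluster, an Alu cluster of 227 bases from 154470672 to 154470898, lay 83.6 kb downstream.

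ADARB1, which encodes the editing enzyme best known for recoding neuronal receptor mRNAs, lies in the window from 46494400 to 46646500 on the plus strand of chromosome 21. Its first cluster, chr21:46533109-46533311, was 203 bases long and centred 38.8 kb from the 5′ end of the window. The second, chr21:46594394-46594605, was 212 bases long and centred at 65.8% of the window, against 25.5% for the first. Both were Alu clusters on the plus strand, and both together covered 415 bases, 0.273% of the window. They lay 61.1 kb apart and were each other's nearest cluster on that strand. ADARB1 is the longest of the 7 windows, at 152.1 kb, and its density of 0.131 clusters per 10 kb was the lowest of the 4 genes with a cluster. When both strands of all chromosomes were divided into adjoining windows of 152.1 kb, 27.8% of them held at least 1 cluster, and 56.0% of these occupied windows held 2 or more. ADARB1 was thus at a common count among occupied windows of its length. Of all 39012 windows of that length, empty ones included, 6071 held 2 or more. Outside the gene, the same strand held 1 cluster in the 500 kb upstream and 0 in the 500 kb downstream.

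Of the sensors, PKR and RIG-I each had a single Alu cluster and MDA5 had 0. The cluster of EIF2AK2, chr2:37351450-37351579 on the minus strand, was 130 bases long and centred 32.8 kb from the 5′ end of a 58.0 kb window, near its middle (56.5% of the way along). The window of EIF2AK2 runs from 37326300 to 37384300, and its density was 0.172 clusters per 10 kb. Among tiled windows of 58.0 kb, 14.8% held any cluster. The next cluster on the strand lay 46.6 kb away, upstream of the gene. In the GENCODE annotation on GRCh38, the coding gene GPATCH11 overlaps EIF2AK2 on the opposite strand, and 0 clusters lay on that strand in the window.

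The cluster of DDX58, chr9:32464427-32464533 on the minus strand, was the shortest of the 5 at 107 bases. It was centred 61.9 kb from the 5′ end and 9.18 kb from the 3′ end of the window from 32455300 to 32526400, at 87.1% of its length. The density of DDX58 was 0.141 clusters per 10 kb. Among tiled windows of its length, 71.1 kb, 17.0% held any cluster. The DDX58 cluster was also the most isolated of the 5. Its nearest same-strand neighbour lay 93.7 kb away, upstream of the gene, and downstream the next one was 3280 kb from the window.

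IFIH1, in the window from 163123500 to 163175300 on the minus strand of chromosome 2, held 0 clusters on either strand over 51.8 kb. Of tiled windows of that length, 86.4% held 0 clusters, so this too is the usual count. The flanks of IFIH1 held 3 same-strand clusters within 500 kb, all upstream and all Alu, and 1 on the opposite strand. The average, which includes sequence that is not transcribed and assembly gaps, was 4.01 per 1000 kb of strand. The nearest same-strand cluster was 406 kb upstream. ADAR and IFIH1 thus shared a count of 0 but not their surroundings, since 18 same-strand clusters lay within 500 kb of ADAR and 3 within 500 kb of IFIH1.

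MAVS, the adaptor that relays the signal of both helicases, carried the only non-Alu cluster among these genes. It lay at chr20:3854489-3854682 on the plus strand, was 194 bases long and was centred 27.2 kb from the 5′ end and 2.21 kb from the 3′ end of the window from 3827400 to 3856800. At 92.5% of the window length it was the nearest of the 5 to a 3′ end. MAVS had the highest density of the 7 genes, 0.34 clusters per 10 kb, which rests on 1 cluster in a window of 29.4 kb. Among windows of that length 8.84% held any cluster, and 74.9% of these held exactly 1. The next cluster on the strand was an Alu cluster 41.3 kb downstream.

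PRKRA, in the window from 179296100 to 179316000 on the minus strand of chromosome 2, had 0 clusters on its own strand. Of tiled windows of its length, 19.9 kb, 93.6% held 0 clusters. PRKRA had the only opposite-strand cluster in the 7 windows, an Alu cluster of 238 bases at chr2:179311413-179311650 on the plus strand, 4.47 kb from its 5′ end. On GRCh38, GENCODE places the coding gene PJVK and the antisense transcript AC009948.1 on the opposite strand overlapping PRKRA. Which of these, if either, spans the cluster was not determined, and the cluster is not counted for PRKRA. Over all 7 windows, 5 of 6 clusters were on the strand of the gene (83.3%, exact Clopper-Pearson 95% interval 35.9 to 99.6%, counting error only). In GENCODE, 0 of the 7 genes overlap another gene on their own strand.

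**Figure D2:**
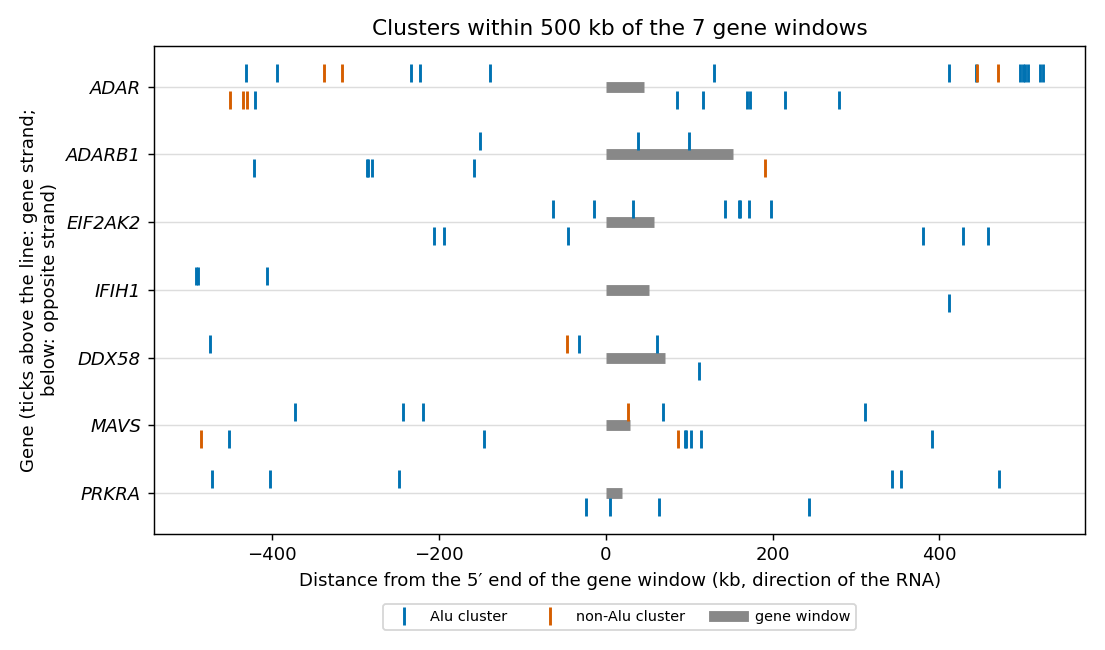
Clusters within 500 kb of each gene window, by distance from the 5′ end of the window in the direction of the RNA (kb); ticks above each line are on the strand of the gene and ticks below on the opposite strand, coloured by class. ADAR has 18 same-strand clusters around it and 0 in its window, a count shared by 87.5% of tiled windows of its length. IFIH1 and DDX58 each have 3 same-strand clusters around them.

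The class of the 5 clusters was close to that of the list. Alu clusters were 4 of 5, or 80.0% (Clopper-Pearson 95% interval 28.4 to 99.5%), against 20196 of the remaining 23777, or 84.9% (84.5 to 85.4%). With 5 clusters, the interval is too wide to tell these genes from the rest. The positions were spread along the windows, from 25.5% of the length in ADARB1 to 92.5% in MAVS. Whether a cluster lies in an intron, an exon or an untranslated region is not stated here, since no hg19 gene models were used.

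Lengths fell into short and typical ones. The median of the 5 was 194 bases, with a range of 107 to 212, against 192 bases for the rest of the list, where the quartiles were 151 and 221 bases. The clusters of DDX58 and EIF2AK2 were on the short side, since 7.94% of Alu clusters were as short as or shorter than 107 bases and 15.4% as short as or shorter than 130 bases. Those of ADARB1 were near the middle of their class, with 60.0% and 67.3% of Alu clusters no longer than they were. The MAVS cluster was also typical, with 53.3% of non-Alu clusters no longer than 194 bases.

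**Figure D3:**
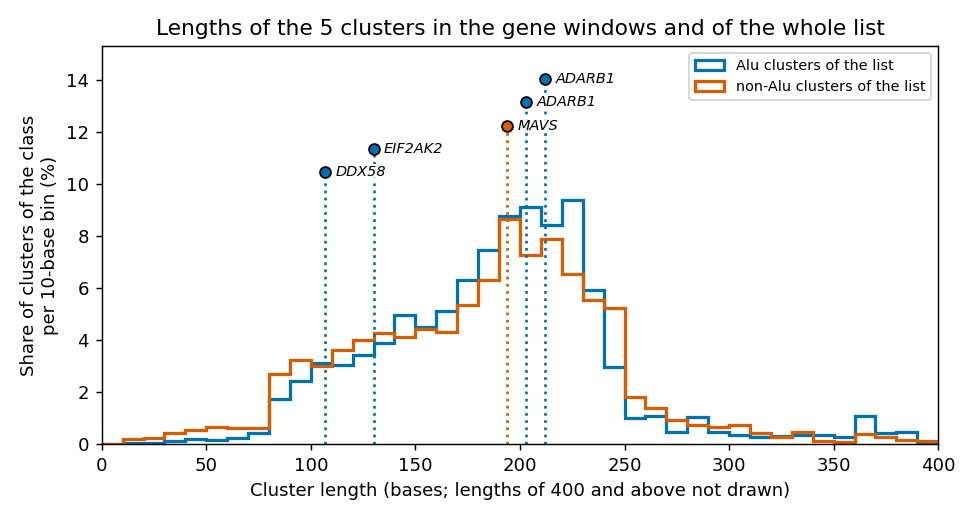
Distribution of cluster lengths (bases) in the deposited list, as the share of each class per 10-base bin (%), with the 5 clusters of the gene windows marked by dots. DDX58 (107 bases) and EIF2AK2 (130 bases) lie in the short tail, and MAVS (194 bases) and both ADARB1 clusters (203 and 212 bases) near the peak.

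Gaps to the nearest same-strand cluster ran from 41.3 kb for MAVS to 93.7 kb for DDX58, with a median of 61.1 kb, and the median of the rest of the list was 17.7 kb. Each of the 5 gaps was thus wider than that median. By class, the median gap of the rest was 18.8 kb for Alu and 11.0 kb for non-Alu clusters, and each of the 5 exceeded both. Gaps as wide as or wider than that of DDX58 occurred for 14.2% of all clusters, and as wide as or wider than that of MAVS for 28.7%. The 5 gaps were therefore all on the wide side of the list, though none was at its extreme. These medians are taken over clusters, so crowded stretches weigh heavily in them. The density of 0.0401 per 10 kb is taken over strand length, so gaps and densities have different baselines. Both ADARB1 clusters have the same gap, which sets the median of 61.1 kb. Whether the spacing differs from that of the list was not tested. A same-strand cluster within 1000 bases was found for 0 of the 5 (0.0%, Clopper-Pearson interval 0.0 to 52.2%), against 1593 of the remaining 23777 (6.7%), and with 5 clusters this does not tell these genes from the rest. The only pair of clusters in 1 gene, that of ADARB1, was 61.1 kb apart.

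**Figure D4:**
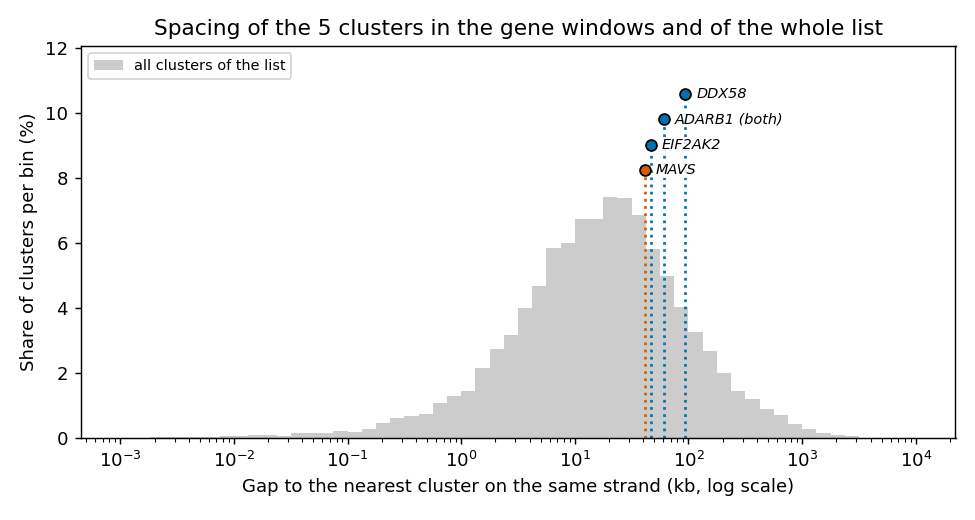
Gap from each cluster to the nearest cluster on the same strand (kb, log scale) for the whole list, as the share of clusters per bin (%), with the 5 clusters of the gene windows marked by dots; both ADARB1 clusters share 1 dot. The marked gaps, 41.3 to 93.7 kb, lie to the right of the list's peak.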

How the data were processed

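CLIP-seq clusters of the AB1 and AB2 libraries of U87MG cells were used as the authors deposited them, in 1 list for the whole series; the sequence behind each and the depth of each library are not given in it. Per the submitters' processing notes, cutadapt 1.1, Novoalign 2.08.22 and the hg19 build were used. The cluster caller, its thresholds, the pooling of libraries and how the Alu class was set were not given in the sources used here. How reads with several matching places were handled, which could affect which Alu copies are listed, was not tested. The gene windows, members and gene names were chosen with earlier results of these data known, and all 7 genes of the rule are named. The windows were from 608 bases shorter to 480 bases longer than the genes' spans in GENCODE release 29 on GRCh38, which was used only for this check and for names and strands of overlapping genes. Other genes of the pathway were not analysed here, since no hg19 annotation was used. Positions are printed counting from 1, reading starts as counted from 0, which the list does not state. Counts, lengths and gaps were computed with pandas 2.3.3 and numpy 2.4.6 under Python 3.11.15, and intervals with scipy 1.17.1. Parts of the code were tested. Counting in windows was checked with simulated clusters planted in the real list, and gaps by direct calculation on a random part of that list. Tiles were checked only for their total. Intervals cover counting error only. Clusters are not replicates, and no test was run. Alternatives changed membership, window ends, length, merging, neighbour distance and tiling.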

Additional observations from a re-analysis of the deposited data

How the results depend on the processing

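Of 136 alternative values, 41 could not move by construction (the rank of a gene with 1 cluster, and values of 0 under settings that only remove clusters or shorten the distance) and say nothing about stability. Of the other 95, 89 stayed within 1.5 times the reported count or density, or within its interval or, for the median length, within 1 SD of the lengths. Many of these 95 had little room to move. Densities repeat the counts, and a smallest gap of 41.3 kb sets the neighbour share within 5000 bases. The windows of ADAR, IFIH1 and PRKRA were bound to stay at 0 under merging, any overlap or extension. Their nearest same-strand clusters lay at least 83.6 kb away. The intervals of the shares were wide, such as 28.4 to 99.5% for the Alu share. The number that stayed is therefore weak evidence of stability. The alternatives covered any overlap or full containment in place of the midpoint, windows extended by 5000 or trimmed by 1000 bases, merging within 50 bases, neighbour distances of 200 and 5000 bases, shifted tiles and a length filter. Keeping only clusters at or above the list's median length of 192 bases (12119 clusters) left EIF2AK2 and DDX58 with 0 clusters and a density of 0.0, because theirs are shorter, by construction. Under that filter, 37.6% of occupied windows as long as that of ADARB1 held at least as many clusters as that gene, and with extended windows 57.6%, against 56.0% as reported. No paired analysis was possible because the single list has no column for AB1 or AB2, so no library could be left out either. A list without read numbers does not show the depth behind a cluster or whether a gene without one was sampled.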
